A study of Mus musculus with 12 samples.

Results

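Guanylate-binding proteins (GBPs) and immunity-related GTPases (IRGs) were represented by 10 genes, chosen by symbol from the 25230 genes counted in each library: Gbp2, Gbp3, Gbp5, Gbp6, Gbp7, Gbp9, Igtp, Irgm1, Irgm2 and Iigp1. The study compared primary mouse mesangial cells (MMC), the contractile support cells of the kidney glomerulus, from wild-type (WT) mice and from a line of mice, lncMGC-KO5, in which the start of the long non-coding RNA lncMGC was deleted with Cas9. Cells of each genotype were either kept in serum-depleted medium (SD) or given TGF-β (10 ng/ml, 24 h). RNA-seq was done on 3 libraries of wild-type cells without (WT-SD) and with the growth factor (WT-TGF), and on 3 of knockout cells without (KO-SD) and with it (KO-TGF). No interferon was given to any group, so the values below are levels without added interferon.

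GBPs are large GTPases of the dynamin superfamily, and IRGs are smaller GTPases that work beside them. Both families are switched on by interferon gamma through the kinases Jak1 and Jak2 and factors such as Irf1, and both gather on the membranes of vacuoles that hold bacteria or parasites. The IRGs are divided into effectors, such as Iigp1, Tgtp1, Tgtp2 and Ifi47, which coat and break such vacuoles, and regulators, Irgm1, Irgm2 and Igtp, which stay on the membranes of the cell and keep the effectors off them. In the kidney glomerulus these genes are known mainly as interferon-inducible genes of resident and infiltrating cells.

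The KO line descends from injected C57BL/6J embryos crossed with C57BL/6 mice, and its cells were taken from 1 edited line. MMC were grown from pooled glomeruli and used after several passages, and the study describes the samples of a group as independent. The sources do not say whether they came from separate cultures or animals, so p-values measure the spread between these libraries. A difference between genotypes cannot be told apart from a difference between the cultures. The RNA lncMGC was not counted as a gene of its own. Mirg and Rian, which share exons with it, had 2.33 ± 0.308 and 42.3 ± 2.61 CPM (counts scaled to library size; SD, n = 3) in WT-SD and, in those labelled KO-SD, 3.67 ± 0.547 and 69.9 ± 0.864 CPM, where both were higher (edgeR's quasi-likelihood test, Benjamini-Hochberg adjusted p = 6.51e-05 and 2.80e-65), a direction opposite to a loss of RNA from the locus. These counts do not back the genotype labels, so every statement on KO is on the libraries as labelled.

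Each library held between 19898050 and 22827706 counts on genes, and a floor of 3 counts in a library stood for 0.131 to 0.151 CPM before scaling, while bounds on folds below use 3 counts over the 3 libraries of a group. CPM values are scaled by trimmed mean of M values (TMM), and values compared between genes are given as RPKM, which also divides by exon length. All 10 genes had counts. Gbp2, Gbp3, Gbp7, Gbp9, Igtp, Irgm1 and Irgm2 passed the limit of RPKM >1 in at least one library, which 11529 genes passed, and Gbp5, Gbp6 and Iigp1 did not and were read from a fit of the 18565 genes with a count. A gene was called higher or lower when its adjusted p was below 5%. An exact permutation test of 3 libraries against 3 cannot go below p = 0.1, so single genes were tested in the fit across genes. Read in the fit of every gene with a count, the numbers of the 10 genes called were the same.

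The genes lie in 5 places of the genome (GRCm38.p6, the assembly of mm10). Gbp5, Gbp7, Gbp3 and Gbp2 lie in that order on chromosome 3, from 142496934 to 142638008. Gbp9 (105076464 to 105110357) and Gbp6 (105270702 to 105295871) lie on chromosome 5 among Gbp8, Gbp4, Gbp10 and Gbp11. Irgm1 lies on chromosome 11 from 48865245 to 48871420, and Igtp and Irgm2 lie next to each other on the same chromosome, from 58199556 to 58222783. Iigp1 lies on chromosome 18 from 60373616 to 60392634.

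The genes differ in how well short reads can be told from those of their copies, since reads that align to several places were left out of the counts. Of all stretches of 51 bases in the transcripts of Gbp6, 49.6% also occur in transcripts of genes elsewhere, mostly Gbp10, and its counts are uncertain for that reason. The share was between 0 and 3.99% for the other 9 genes. Genes annotated over the same locus were set aside and are not in these shares. For Gbp9 these were Gbp4 and Gbp8, for Igtp it was Irgm2, and for Irgm2 it was Igtp.

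Promoter sequences are shown because GBP and IRG genes are known for 2 short elements that bind interferon-activated factors. RefSeq windows, from 250 bases before the start site to 50 after it (counting the start as the first of these), were at hand for 7 of the 10 genes, and not for Gbp6, Gbp9 and Iigp1. The letters GAAANNGAAA or their reverse TTTCNNTTTC, the core of an interferon-stimulated response element (ISRE), were found in the windows of 7 of these 7 genes. Of all 32851 windows of the same length, 3.44% held them, and of all genes with a window 3.99% did so. The letters TTCNNNGAA, the core of a gamma-activated site (GAS), read alike on both strands. They were found in 4 of the 7, Gbp5, Gbp7, Igtp and Irgm2, in 8.30% of all windows and in 9.55% of all genes with a window. Both elements were held by these 4 genes, by 0.454% of all windows and by 0.540% of all genes with a window. A match of letters is a description and not a bound site. In the stretches below, read 5′ to 3′ on the strand of the gene, capitals mark the matched letters, and matches that overlap run together.

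Gbp5 (chr3:142496689-142496890, plus strand): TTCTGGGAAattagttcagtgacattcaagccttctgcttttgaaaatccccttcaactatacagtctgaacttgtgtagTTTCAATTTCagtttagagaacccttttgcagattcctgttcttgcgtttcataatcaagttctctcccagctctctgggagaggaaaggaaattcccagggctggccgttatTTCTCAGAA
Gbp7 (chr3:142530221-142530300, plus strand): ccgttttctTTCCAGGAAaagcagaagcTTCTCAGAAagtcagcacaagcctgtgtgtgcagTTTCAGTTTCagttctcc
Gbp3 (chr3:142559967-142560046, plus strand): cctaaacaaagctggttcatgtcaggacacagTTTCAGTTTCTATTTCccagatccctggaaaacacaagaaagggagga
Gbp2 (chr3:142620569-142620648, plus strand): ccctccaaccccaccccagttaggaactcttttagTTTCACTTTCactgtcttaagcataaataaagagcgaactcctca
Irgm1 (chr11:48871403-48871482, minus strand): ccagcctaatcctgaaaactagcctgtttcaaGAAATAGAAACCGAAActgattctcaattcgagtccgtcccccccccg
Igtp (chr11:58199481-58199560, plus strand): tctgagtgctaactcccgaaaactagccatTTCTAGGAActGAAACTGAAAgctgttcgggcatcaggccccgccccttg
Irgm2 (chr11:58214872-58214951, plus strand): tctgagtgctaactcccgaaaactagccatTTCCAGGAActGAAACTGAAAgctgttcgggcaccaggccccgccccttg
Tgtp1 (chr11:48992285-48992364, minus strand): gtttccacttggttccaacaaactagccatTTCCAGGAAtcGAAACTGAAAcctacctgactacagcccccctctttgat

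In Gbp2 the ISRE letters began 59 bases before the start site. Gbp3, which has 2 windows, held 2 overlapping ISRE matches in one of them, and Irgm1 held 2 that overlap in the same way. Gbp7 held 2 GAS matches followed by an ISRE match, and in Gbp5 GAS matches lay on both sides of the ISRE match. The stretches of the neighbours Igtp and Irgm2 were identical at 78 of 80 bases. In both, GAS letters were followed after 2 bases by ISRE letters, as they were in the IRG effectors Tgtp1 and Tgtp2 outside the group of 10. That arrangement, looked for after it was seen in Igtp and Irgm2, was found in 5 of the 32851 windows, those of Igtp, Irgm2, Tgtp1, Tgtp2 and Gm12185, a gene annotated over the locus of Tgtp1.

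By level per length, Irgm1 stood far above the rest. It had 99.5 ± 0.390 RPKM in WT-SD, against 17.6 ± 1.01 for Gbp2, 6.30 ± 0.310 for Irgm2, 4.27 ± 0.253 for Igtp, 3.62 ± 0.205 for Gbp7, 2.80 ± 0.304 for Gbp9 and 2.39 ± 0.247 for Gbp3. Gbp6, Gbp5 and Iigp1 had 0.670 ± 0.0658, 0.251 ± 0.0634 and 0.117 ± 0.0468 RPKM. Irgm1 alone made up 72.4% ± 0.493 of the summed RPKM of the 10 genes in WT-SD, 82.9% ± 0.130 in WT-TGF, 82.0% ± 0.351 in KO-SD and 87.0% ± 0.486 in KO-TGF. The summed level of the other 9 was 125 ± 1.91 CPM in WT-SD, 67.1 ± 3.03 in KO-SD, 50.8 ± 0.991 in WT-TGF and 26.7 ± 0.673 in KO-TGF.

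**Figure D1:**
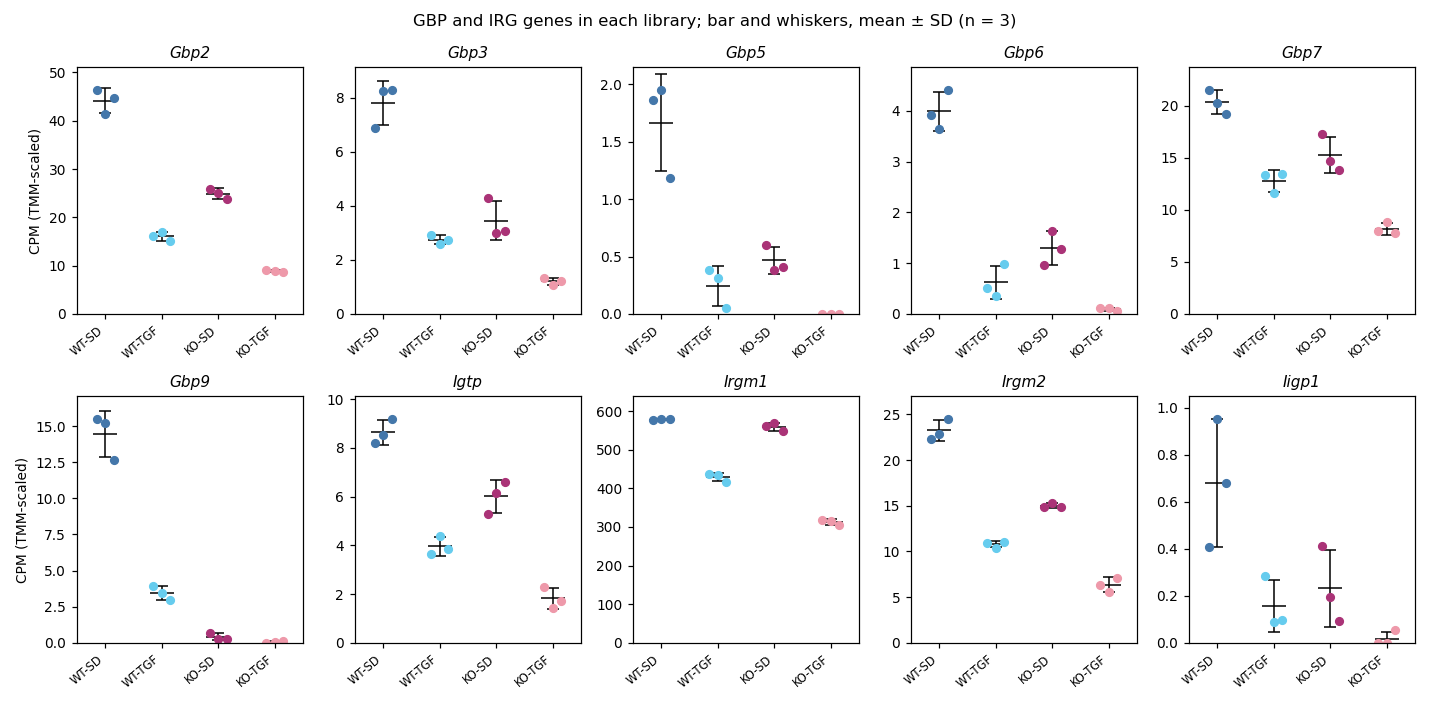
Each panel plots one gene in the 12 libraries, with the group on the x axis and CPM scaled by TMM on a y axis that starts at 0. Points are libraries, and the bar and whiskers are the mean and SD of 3. WT-SD is the highest group and KO-TGF the lowest in all 10 panels, and in Gbp9 both KO groups lie near 0.

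The order of the group means was WT-SD, KO-SD, WT-TGF and KO-TGF in 9 of the 10 genes. Gbp9 was the exception, with WT-TGF above KO-SD. Neighbours in that order did not overlap in 8 genes. In Gbp6 the KO-SD and WT-TGF libraries overlapped, and in Iigp1 those of WT-SD and KO-SD, and of KO-SD and WT-TGF, did so. How many of all genes share this order, or lack overlap here or in the comparisons below, was not counted. The order and the lack of overlap are therefore not read as particular to the 10 genes.

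TGF-β and SD were compared in WT MMC to ask how the genes respond to the growth factor in unedited cells. All 10 genes were lower with TGF-β, with no overlap between libraries, 7 in the fit of genes over the RPKM limit and 3 in the fit of all genes with a count. The background was high: 36.4% of the genes over the limit were lower and 36% higher, and 25.8% of the genes with a count were lower. Over the 10 genes the median change was -1.48 on the log2 scale, beside 0.00 for all genes with a count. Decreases made up 50.3% of the calls over the limit, and 69.6% when libraries were scaled by their size alone, which shifts log2 fold changes of this comparison by -0.16. Increases smaller than this shift, or than those given below for the other comparisons, change sign with the scaling. The decreases of the 10 genes keep theirs.

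Among the GBPs, Gbp2, which is recruited to the vacuoles of parasites and to bacteria in the cytosol, had 1020, 955 and 983 counts in WT-SD and 339, 380 and 307 in WT-TGF. It was 44.2 ± 2.53 CPM in WT-SD and 16 ± 0.888 in WT-TGF, a log2 fold change of -1.46 (SE 0.0572, adjusted p = 3.76e-20, where this and all adjusted p-values here are those of edgeR). Its neighbour Gbp3 had 151, 190 and 182 counts in WT-SD and 62, 58 and 55 in WT-TGF, and fell to a like extent (-1.51, SE 0.135). Gbp7 had 473, 468 and 422 counts against 282, 260 and 271, the smallest decrease of the GBPs (-0.67, SE 0.0780). The lowest WT-SD library lay above the highest WT-TGF library in each of the 3.

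Gbp9, Gbp6 and Gbp5 had larger decreases. Gbp9 had 341, 351 and 278 counts in WT-SD and 83, 77 and 60 in WT-TGF, a log2 fold change of -2.07 (SE 0.125, adjusted p = 2.29e-15). Gbp6 had 86, 84 and 97 counts against 11, 8 and 20 (-2.66, SE 0.217). Gbp5, a GBP linked to inflammasome activation, had 41, 45 and 26 counts against 8, 7 and 1 (-2.68, SE 0.338). The WT-TGF libraries of Gbp5 and Gbp6 held 1 to 20 counts, and the WT-SD libraries stood above all of them.

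Among the IRG regulators, Irgm1, which is also linked to autophagy and to the upkeep of mitochondria, had 12660, 13379 and 12714 counts in WT-SD and 9231, 9746 and 8434 in WT-TGF. Its decrease was the smallest of the 10 genes and the libraries did not overlap (-0.43, SE 0.0246, adjusted p = 6.04e-16). Irgm2 had 491, 528 and 539 counts against 230, 234 and 224 (-1.11, SE 0.0702), and Igtp 180, 197 and 202 against 77, 98 and 78 (-1.12, SE 0.120). The neighbours Igtp and Irgm2, whose promoter stretches are nearly the same, differed in level, and in this comparison their log2 fold changes lay within 1 SE of each other. With TGF-β in KO, given below, their log2 fold changes lay more than 1 SE apart. A link between these stretches and the responses was not tested. The effector Iigp1 had 9, 22 and 15 counts against 6, 2 and 2 (-2.06, SE 0.489, adjusted p = 7.23e-05).

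In the libraries labelled KO the same comparison asks how the genes respond to TGF-β when lncMGC is deleted. TGF-β went with lower levels of all 10 genes in KO, again with no overlap between KO-TGF and KO-SD, where 39.1% of the genes over the RPKM limit were lower and 34.9% higher, and 28.5% of all genes with a count were lower. The median log2 fold change of the 10 was -1.61, beside -0.02 for all genes with a count. Scaling by library size shifts this comparison by -0.20, and the share of decreases among calls moves from 52.8% to 74.5%.

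Gbp2 had 564, 520 and 518 counts in KO-SD and 171, 167 and 167 in KO-TGF, a log2 fold change of -1.48 (SE 0.0729, adjusted p = 1.07e-17). Gbp3 had 93, 62 and 67 counts against 25, 20 and 23 (-1.51, SE 0.200), and Gbp7 375, 304 and 302 against 149, 165 and 147 (-0.90, SE 0.0931). Irgm1 had 12214, 11775 and 11956 counts against 5956, 5877 and 5796 (-0.84, SE 0.0252, adjusted p = 3.23e-23). The 3 KO-TGF libraries of Irgm1 were thus below each of the other 9.

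Igtp had 115, 127 and 144 counts in KO-SD and 43, 27 and 33 in KO-TGF (-1.71, SE 0.158), and Irgm2 324, 318 and 324 against 119, 103 and 136 (-1.24, SE 0.0877). Gbp5, Gbp6, Gbp9 and Iigp1 had at most 2 counts in any KO-TGF library, so their ratios rest on counts. Gbp5 had 13, 8 and 9 counts in KO-SD and none in the 3 KO-TGF libraries, and was at least 8.77-fold lower, taking 3 counts over the group as the floor. Gbp6 had 21, 34 and 28 counts against 2, 2 and 1, a ratio of 14.6 (95% exact binomial counting interval 6 to 46.0). Gbp9 had 15, 6 and 6 counts against 0, 1 and 2 (ratio 7.90, 2.43 to 40.7), and Iigp1 9, 4 and 2 against 0, 0 and 1 (13.2, 2.02 to 554). Such intervals cover counting error only.

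**Figure D2:**
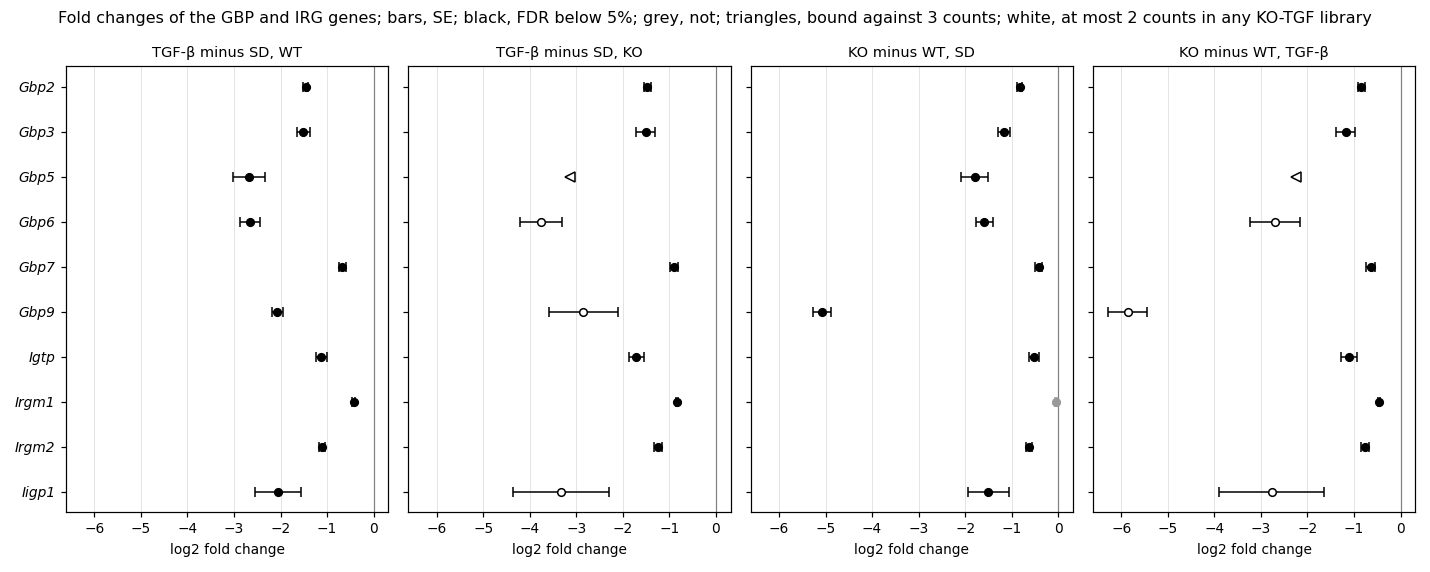
The x axis is the log2 fold change and the y axis lists the 10 genes, with one panel for TGF-β against SD in WT, the same in KO, KO against WT in SD and KO against WT with TGF-β. Bars are SE, black marks adjusted p below 5%, triangles mark bounds against the floor for Gbp5 and white points genes with at most 2 counts in any KO-TGF library. Every point lies left of 0, and Gbp9 lies at -5.09 in KO against WT in SD.

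Libraries labelled KO and WT were then compared in serum-depleted cells, which asks whether the deletion alone goes with other levels. Of the 10 genes, 9 were lower in KO-SD and Irgm1 was not called. The background was 25.2% lower and 30.9% higher over the RPKM limit, where 6 of 7 of the genes were lower, and 17.9% lower among all genes with a count. The median log2 fold change of the 10 was -1.0, beside 0.00 for all genes with a count. Scaling by library size shifts this comparison by -0.08, and decreases then make up 63.2% of the calls in place of 44.9%.

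Gbp9 differed most between the genotypes. It was 14.5 ± 1.57 CPM in WT-SD and 0.418 ± 0.235 in KO-SD, which is -5.09 on the log2 scale (SE 0.194, adjusted p = 4.67e-20), which ranked 12th from the lowest of 11529 genes. Gbp6 (3.99 ± 0.392 against 1.30 ± 0.338 CPM) and Gbp5 (1.67 ± 0.421 against 0.465 ± 0.115 CPM) had log2 fold changes of -1.59 (SE 0.183) and -1.80 (SE 0.293). The differences were -1.17 for Gbp3 (SE 0.128), -0.83 for Gbp2 (SE 0.0528) and -0.41 for Gbp7 (SE 0.0753), and the libraries of these GBPs did not overlap between genotypes.

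Of the IRGs, Irgm2 was 23.3 ± 1.14 CPM in WT-SD and 15 ± 0.275 in KO-SD (-0.63, SE 0.0658), and Igtp 8.64 ± 0.511 and 6.01 ± 0.670 CPM (-0.52, SE 0.110, adjusted p = 0.000152). Irgm1 was 578 ± 2.27 CPM in WT-SD and 559 ± 10.1 in KO-SD, a difference of -0.05 on the log2 scale (SE 0.0244) that missed the threshold (adjusted p = 0.0962), although the libraries did not overlap. It passed with library size alone (-0.12), with DESeq2 (-0.06), in a fit of the 2 groups alone (-0.07) and without any one of the KO-TGF libraries (-0.07). Iigp1 was lower in KO-SD (-1.50, SE 0.446, adjusted p = 0.00240) with libraries that overlapped, and the call was lost with DESeq2 (adjusted p = 0.0685) and without WT-SD replicate 2 (log2 fold change -1.18, adjusted p = 0.0841).

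With TGF-β, KO-TGF was below WT-TGF in 10 of the 10 genes with no overlap, where 27.8% of the genes over the limit were lower and 27.2% higher, and 20.3% of all genes with a count were lower. The median log2 fold change of the 10 was -1.15, beside 0.00 for all genes with a count. Library size alone shifts this comparison by -0.12 and the share of decreases among calls from 50.5% to 76.7%. This comparison and the one in SD share no libraries with each other, but each shares its libraries with a comparison of TGF-β and SD.

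Gbp2 was 16 ± 0.888 CPM in WT-TGF and 8.96 ± 0.192 in KO-TGF (-0.84, SE 0.0791), Gbp7 12.8 ± 1.02 and 8.18 ± 0.575 CPM (-0.64, SE 0.0964) and Gbp3 2.74 ± 0.174 and 1.21 ± 0.135 CPM (-1.18, SE 0.211). Irgm1 was 429 ± 10.9 and 313 ± 7.34 CPM, now a called decrease (-0.46, SE 0.0254, adjusted p = 6.20e-16), and Irgm2 10.8 ± 0.325 and 6.34 ± 0.820 CPM (-0.76, SE 0.0937). Igtp was 3.95 ± 0.375 and 1.83 ± 0.437 CPM (-1.11, SE 0.173). The rare genes had few or no counts in KO-TGF. Gbp5 was at least 4.71-fold lower than in WT-TGF, and the counting ratios were 6.89 for Gbp6 (2.71 to 22.4), 64.8 for Gbp9 (21.9 to 317) and 8.84 for Iigp1 (1.26 to 383). The call of Iigp1 (adjusted p = 0.0363) was lost with DESeq2, in a fit of the 2 groups alone and under the replicate block (adjusted p = 0.0800, 0.0515 and 0.0567). It was also lost without WT-SD replicate 2 (0.0567), without replicate 1 of WT-TGF (0.262) and without replicates 1 and 2 of KO-TGF, each in turn (0.128 and 0.130).

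Markers of other cells moved with the genotype comparisons and are given here as measured. The 14 macrophage markers summed to between 29.7 and 31.5 CPM in WT-SD, 18.7 and 22.6 in WT-TGF, 2.20 and 2.61 in KO-SD and 1.12 and 1.82 in KO-TGF. Of the 14, 12 were lower in KO-SD, and Adgre1, Itgam, C1qa, C1qb, C1qc, Aif1, Tyrobp and Spi1 had no count in KO-SD. In bulk RNA, fewer cells of a type and less RNA per cell cannot be told apart, and the part of macrophages in the lower levels of GBPs and IRGs in KO was not tested. The decreases with TGF-β in KO were measured between 2 groups that were both low in these markers, with Adgre1, C1qa, C1qb, C1qc, Tyrobp and Spi1 at 0 in both. Of the 14, 2 were called lower with TGF-β in KO and none higher. Lyz2 had 24 counts over the KO-SD libraries and 3 over those of KO-TGF, and Cd68 had 74 and 33. The part of macrophages in these decreases, or in those with TGF-β in WT, was not tested either. The 8 T and NK cell markers summed to at most 3 counts in any library, and Cd3d, Cd3e, Cd3g, Cd8a and Ncr1 had none in any group.

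Markers of glomerular and tubular cells moved too. The 10 mesangial and smooth muscle markers summed to between 2547 and 2681 CPM in WT-SD, 5765 and 5914 in WT-TGF, 4911 and 5071 in KO-SD and 11015 and 11108 in KO-TGF, with Ren1 at 0 in every group. Acta2 and Tagln carried most of this sum. Other markers of the list went another way, such as Pdgfra, with 3.54 ± 0.426 CPM in WT-SD, 0.646 ± 0.139 in WT-TGF, 1.97 ± 0.285 in KO-SD and 0.212 ± 0.0894 in KO-TGF, and Des, with 7.67 ± 0.947 CPM in WT-SD and 0.529 ± 0.0234 in KO-SD. Endothelial markers (8) summed to 33.2 to 33.5 CPM in WT-SD, 20.2 to 22.6 in WT-TGF, 17.2 to 18.5 in KO-SD and 9.25 to 10.9 in KO-TGF, nearly all of it Ehd3 (32.6 ± 0.306 CPM in WT-SD), while Pecam1 had 4 counts over the WT-SD libraries and 10 over those of KO-SD. Tubular markers (8) summed to 67.9 to 74.8, 17.9 to 19.7, 14.4 to 15.9 and 7.04 to 7.44 CPM in the same order, with Slc34a1, Umod and Aqp2 at 0 in every group. Lrp2 and Cdh16 carried that sum (42.6 ± 1.55 and 27.5 ± 2.15 CPM in WT-SD), and Slc12a1 went the other way, with 0.358 ± 0.117, 0.843 ± 0.0979, 1.25 ± 0.353 and 3.05 ± 0.232 CPM. Podocyte markers (7) summed to 459 to 468 and 455 to 474 CPM in WT-SD and WT-TGF, and to 218 to 227 and 205 to 219.9 CPM in KO-SD and KO-TGF. The part of these cells in the results was not tested.

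Whether TGF-β acted differently in the genotypes was tested as the interaction, the log2 response in KO minus that in WT. Of the 10 genes 2 had a stronger decrease in KO, Irgm1 and Igtp, and 8 were not called. Over the RPKM limit, 16.6% of the genes had a negative interaction and 8.67% a positive one. Irgm1 fell by 0.43 on the log2 scale in WT and by 0.84 in KO, a difference of -0.41 (SE 0.0352, adjusted p = 1.32e-10). Igtp fell by 1.12 in WT and by 1.71 in KO, a difference of -0.59 (SE 0.208, adjusted p = 0.0351), which lost its call with DESeq2 (adjusted p = 0.0959) and in 7 of the 12 fits that leave out a library. For Gbp2 and Gbp3 the differences were -0.02 (SE 0.0952) and -0.01 (SE 0.185), and neither was called. Irgm2 (-0.13, SE 0.116), Gbp7 (-0.23, SE 0.123), Gbp9 (-0.78, SE 0.789), Gbp6 (-1.10, SE 0.624) and Iigp1 (-1.27, SE 1.21) were not called. Gbp5, with no count in KO-TGF, was not called either (adjusted p = 0.0721) and was called without WT-TGF replicate 3, the library with 1 count (adjusted p = 0.0334).

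The difference of Gbp9 between the genotypes was set beside the genes around it. Its neighbours in the same run on chromosome 5 had few counts. Gbp8 had 9, 14 and 8 counts in WT-SD and none in KO-SD, and was at least 9.91-fold lower. Gbp4 had 4, 1 and 4 counts in WT-SD and none in KO-SD (at least 2.88-fold lower), and Gbp10 2, 5 and 1 against none (at least 2.56-fold lower). Of the 51-base stretches of Gbp10, 75.8% are shared with genes elsewhere, mostly Gbp6, so its counts are uncertain. Of the run, Gbp6 alone kept more than 20 counts in every KO-SD library, and 49.6% of its 51-base stretches are shared with genes elsewhere. Within 500 kb of the run, 4 other genes passed the RPKM limit, chosen by position after the value of Gbp9 was seen. Zfp951 (0.75, adjusted p = 3.12e-06), Lrrc8b (0.52, adjusted p = 9.90e-11) and Lrrc8c (0.16, adjusted p = 0.00475) were higher in KO-SD and Lrrc8d was not called (0.02). On chromosome 3, 5 other genes within 500 kb of Gbp5 to Gbp2 passed the limit, and in KO-SD 2 of these were higher and none lower. None of these neighbours was lower in KO-SD, and with TGF-β 1 of them, Lrrc8d, was lower in KO (-0.21). Of all genes over the limit, 25.2% were lower and 30.9% higher in KO-SD, and 27.8% were lower in KO with TGF-β. With so few neighbours, these counts are not read as a trait of the regions.

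Of the other genes of the 2 families, 18 were in the table, 15 had a count and 5 passed the RPKM limit. The IRG effectors Tgtp1, Tgtp2 and Ifi47, which made up 3 of the 5, were lower with TGF-β in both genotypes. Tgtp1 had 354, 394 and 376 counts in WT-SD, 50, 38 and 43 in WT-TGF, 152, 127 and 136 in KO-SD and 7, 7 and 8 in KO-TGF. Its log2 fold change with TGF-β was -3.03 (SE 0.110) in WT and -4.03 (SE 0.202) in KO, and it was lower in KO than in WT in SD (-1.38, SE 0.0869) and with TGF-β (-2.38, SE 0.264). The libraries of Tgtp1 did not overlap in any of these comparisons.

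Tgtp2, its near copy, had 85, 82 and 96 counts in WT-SD and 83, 94 and 72 in KO-SD, and the genotypes overlapped (-0.02, SE 0.156, adjusted p = 0.931). With TGF-β it had 28, 39 and 17 counts in WT and 11, 16 and 10 in KO, decreases of -1.57 (SE 0.198) and -2.55 (SE 0.243). Tgtp1 and Tgtp2 share 79.2% and 86.4% of their 51-base stretches with other loci, mostly each other, so their counts rest on the rest of their sequence and are uncertain.

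Ifi47 went the other way between genotypes. It had 189, 207 and 227 counts in WT-SD and 557, 473 and 493 in KO-SD, which is 1.35 on the log2 scale (SE 0.0791, adjusted p = 2.41e-15). With TGF-β it had 120, 126 and 117 counts in WT and 224, 200 and 182 in KO, where it was again higher in KO (0.92, SE 0.105). It was lower with TGF-β in WT (-0.71, SE 0.105) and in KO (-1.14, SE 0.0799), and none of its libraries overlapped in these 4 comparisons. None of its 51-base stretches occurs at another locus, and neither ISRE nor GAS letters were found in its promoter window, which says only that these letters are not in this window.

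**Figure D3:**
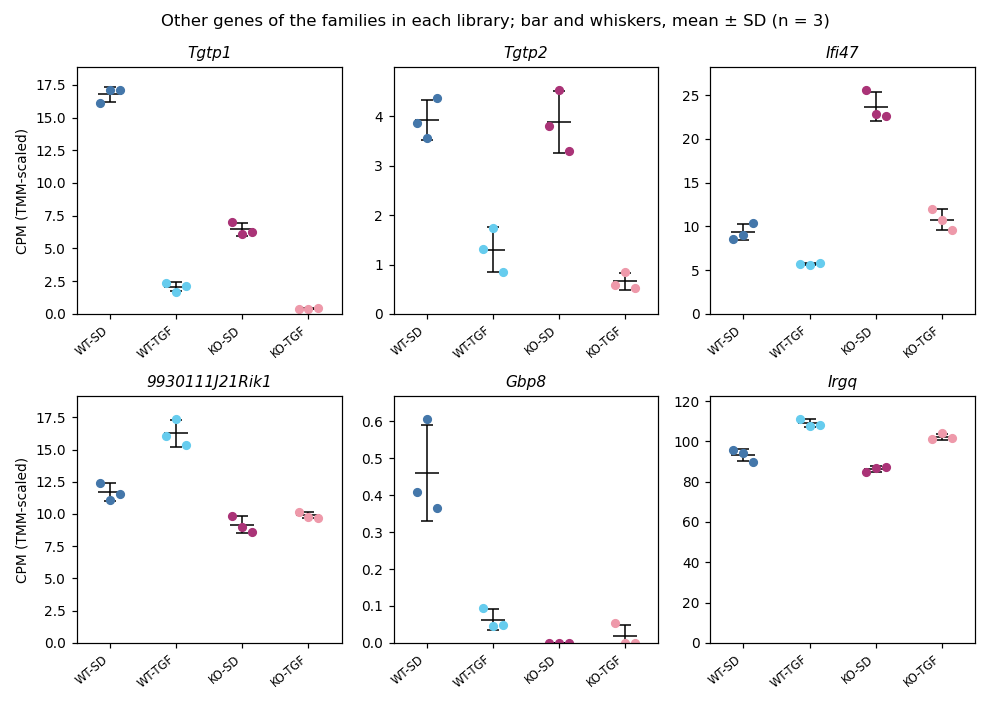
Each panel plots another gene of the families in the 12 libraries, with the group on the x axis and CPM scaled by TMM on a y axis from 0, points for libraries and bars and whiskers for the mean and SD of 3. Ifi47 is highest in KO-SD at 23.7 ± 1.66 CPM, Tgtp1 is highest in WT-SD at 16.8 ± 0.578 CPM, and Gbp8 has no count in KO-SD.

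The other 2 that passed the limit were 9930111J21Rik1 and Irgq, and both were higher with TGF-β in WT (0.48, SE 0.0739, and 0.23, SE 0.0330). Irgq, an IRG-like gene not known for interferon control, had 1975 to 2172 counts in WT-SD and 2189 to 2414 in WT-TGF, was higher with TGF-β in KO as well (0.24, SE 0.0340), though in neither genotype with library size alone (0.07 and 0.04), and was slightly lower in KO than in WT in SD (-0.11, SE 0.0337). 9930111J21Rik1 was not called with TGF-β in KO (0.11, SE 0.0882) and was lower in KO in SD (-0.35, SE 0.0825) and with TGF-β (-0.72, SE 0.0792), and 82.2% of its 51-base stretches occur elsewhere. Gm12250, 9930111J21Rik2 and Gm5431 had at most 13 counts in any library and were not called in any of the 4 comparisons. Gbp2b, Gbp11, F830016B08Rik and Gm4951 had at most 2 counts in any library, and Gm4841, Irgc1 and Gvin1 had none. Of the 51-base stretches of Gvin1, 99.11% occur elsewhere, so its lack of counts does not show that its RNA was absent. The share was 59.4% for 9930111J21Rik2 and 36.85% for Gm5431, whose counts are uncertain too.

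The interferon gamma pathway upstream of these genes was read from a list of 15 genes, of which 11 passed the RPKM limit. With TGF-β in WT, 5 of the 11 rose and 6 fell, and in KO 5 rose, 5 fell and 1 was not called. KO was lower than WT for 6 and higher for none in SD, and lower for 4 and higher for 1 with TGF-β. The medians were -0.07, -0.03, -0.10 and -0.09, beside medians of all genes over the limit of 0.00, -0.03, 0.02 and 0.00. Of all genes over the limit, 36.4% fell and 36% rose with TGF-β in WT, and 39.1% and 34.9% in KO. In KO against WT, 25.2% were lower and 30.9% higher in SD, and 27.8% and 27.2% with TGF-β. These medians and shares also stand beside the lists below, and a count near them is not read as a trait of a list. Ifng, the ligand, and Ifnb1, a type I interferon, had no count in any library, which allows up to 0.131 to 0.151 CPM in a library.

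The receptor chains Ifngr1 and Ifngr2 differed little between groups. Ifngr1 was 84.3 ± 3.09 CPM in WT-SD, 92.8 ± 2.05 in WT-TGF, 87.5 ± 2.19 in KO-SD and 95.9 ± 4.60 in KO-TGF, with called increases with TGF-β in WT (0.14, SE 0.0378) and in KO (0.13, SE 0.0382) that are smaller than the shift between the scalings. Jak2 was 229 ± 3.40 CPM in WT-SD and lower in every other group, 155 ± 5.06 in WT-TGF, 146 ± 4.99 in KO-SD and 124 ± 3.43 in KO-TGF. Its change with TGF-β was -0.56 (SE 0.0294) in WT and -0.24 (SE 0.0316) in KO, and its interaction was positive (0.33, SE 0.0432, adjusted p = 5.33e-07), opposite to that of Irgm1. Jak1 differed by -0.16 to 0.10 on the log2 scale in the 4 comparisons.

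Irf1, the factor that binds ISRE elements in GBP promoters, had 823, 861 and 886 counts in WT-SD, 533, 555 and 504 in WT-TGF, 749, 772 and 775 in KO-SD and 445, 434 and 403 in KO-TGF. With TGF-β it fell by 0.62 on the log2 scale in WT (SE 0.0515) and by 0.65 in KO (SE 0.0546), and it did not pass the test between genotypes in SD (-0.10, SE 0.0485) or with TGF-β (-0.13, SE 0.0580). Socs1, the feedback inhibitor of Jak kinases, rose with TGF-β in WT (1.35, SE 0.158) and in KO (1.14, SE 0.150) from 1.70 ± 0.248 CPM in WT-SD, and Socs3, another, was lower with TGF-β in WT (-0.19, SE 0.0632). Nlrc5, the activator of class I antigen presentation genes, lay under the RPKM limit. It was 2.54 ± 0.341 CPM in WT-SD and 0.704 ± 0.207 in KO-SD (-1.82, SE 0.231), and with TGF-β was not called in WT (-0.01, SE 0.174) and fell by 1.03 in KO (SE 0.386).

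**Figure D4:**
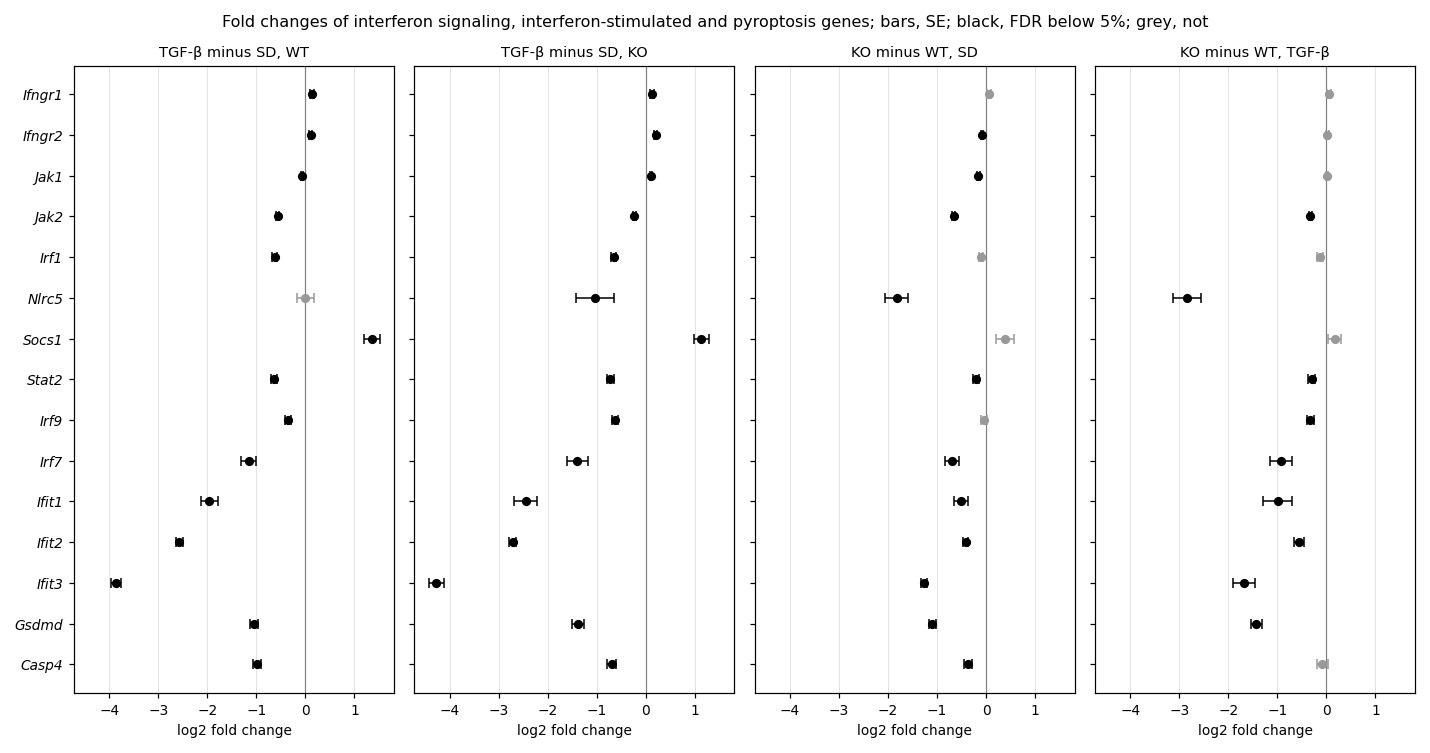
The x axis is the log2 fold change and the y axis lists genes of interferon signaling, interferon response and pyroptosis, with one panel for each of the same 4 comparisons, SE as bars, black for adjusted p below 5% and grey for the rest. Ifit3 has the lowest values with TGF-β, at -3.86 in WT and -4.27 in KO, Socs1 lies to the right of 0, and Ifngr1 and Ifngr2 lie close to 0.

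The type I interferon list held 18 genes, of which 12 passed the RPKM limit. With TGF-β, 10 fell and 1 rose in WT, and 10 fell and 2 rose in KO, with medians of -0.74 and -0.75. KO was lower for 8 and higher for none in SD, and lower for 8 and higher for 1 with TGF-β, with medians of -0.33 and -0.31. Ifit3, Ifit2 and Ifit1, antiviral proteins that bind RNA and are made from genes with ISREs, had the largest decreases with TGF-β in WT among listed genes with at least 1 CPM, of -3.86 (SE 0.0951), -2.57 (SE 0.0651) and -1.96 (SE 0.177). Ifit3 went from 41.5 ± 1.60 CPM in WT-SD to 2.84 ± 0.289 in WT-TGF and from 17.2 ± 0.316 in KO-SD to 0.883 ± 0.5 in KO-TGF. In SD, Usp18 (-1.33, SE 0.341), Ifit3 (-1.27, SE 0.0665) and Oasl2 (-1.22, SE 0.151) had the largest differences between KO and WT of the listed genes with at least 1 CPM. The factors Stat2, Irf9 and Irf7 fell with TGF-β in WT by 0.63 (SE 0.0591), 0.35 (SE 0.0638) and 1.15 (SE 0.156).

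Genes that work with GBPs and IRGs on membranes moved little or not in one direction. Of 10 genes of the ATG conjugation machinery, which IRGs and GBPs need to reach the right membrane, 2 rose and 4 fell with TGF-β in WT, 5 rose and 3 fell in KO, and in KO against WT 1 was higher and 5 lower in SD and 1 higher and 4 lower with TGF-β. The largest changes with TGF-β in WT were those of Gabarapl1 (-0.52, SE 0.0265), Atg5 (0.39, SE 0.0579) and Atg7 (-0.25, SE 0.0541). In KO against WT in SD they were those of Atg7 (-0.37, SE 0.0548), Gabarapl1 (-0.20, SE 0.0260) and Gabarap (0.17, SE 0.0263). None of the 10 had an interaction by edgeR's test.

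Of the 8 inflammasome and pyroptosis genes, which GBPs trigger by exposing bacterial products, 4 passed the limit, and with TGF-β 2 fell in WT and 2 in KO. Gsdmd, the pore of pyroptosis, was 16.5 ± 0.885 CPM in WT-SD, 7.99 ± 0.436 in WT-TGF, 7.70 ± 0.321 in KO-SD and 2.96 ± 0.216 in KO-TGF, lower with TGF-β in WT (-1.04, SE 0.0791) and in KO (-1.38, SE 0.117) and lower in KO in SD (-1.09, SE 0.0795) and with TGF-β (-1.43, SE 0.117). Casp4, the sensor of lipopolysaccharide, fell with TGF-β in WT (-0.99, SE 0.0899) and in KO (-0.70, SE 0.0988), and was lower in KO in SD (-0.37, SE 0.0826). With TGF-β its libraries overlapped between genotypes (8.25 ± 0.962 CPM in WT-TGF and 7.83 ± 0.952 in KO-TGF). Il1b had 123 counts over the WT-SD libraries and none in KO-SD, at least 39.3-fold lower, and is known as a product of macrophages, whose markers moved with it; their part was not tested. Aim2, the sensor of cytosolic DNA, had at most 1 count in any library.

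The related large GTPases of the dynamin superfamily, which shape mitochondria, vesicles and the endoplasmic reticulum and mostly lack interferon control, were listed with the interferon-inducible Rnf213, and 10 of 11 passed the limit. With TGF-β 4 rose and 3 fell in WT and 4 rose and 2 fell in KO, and KO was higher for 3 and lower for 4 in SD and higher for 4 and lower for 4 with TGF-β. The medians of this list were 0.06, 0.04, 0.01 and 0.00. Rnf213, a giant ubiquitin ligase that is also recruited to bacteria, had the largest change of the list with TGF-β in WT, from 212 ± 3.73 to 87.2 ± 1.82 CPM (-1.28, SE 0.0300), and in SD was lower in KO (-0.41, SE 0.0282). Dnm1 (-0.74, SE 0.0727) and Dnm3 (-0.35, SE 0.0905) also fell with TGF-β in WT, and Dnm1 (-0.27, SE 0.0682) and Atl1 (-0.21, SE 0.0734) were lower in KO in SD.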

How the data were processed

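RNA-seq libraries of mouse mesangial cells, 3 in each of 4 groups, were read as the counts per gene that the authors deposited. The authors made poly(A) libraries with a KAPA mRNA kit, sequenced 51-base single-end reads, aligned them to mm10 with TopHat and counted them by strand with HTSeq. Reads outside genes (10.3% to 15.4%), with several alignments (11.2% to 11.7%) or ambiguous (0.225% to 0.274%) were left out. Every count column was mapped to a sample (0 columns were not).

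Counts were fitted in one model of the 4 groups with edgeR 4.0.16 (R 4.3.3, limma 3.58.1), with TMM scaling, quasi-likelihood tests and p-values adjusted after Benjamini and Hochberg, over the 11529 genes whose RPKM exceeded 1 in any library (lengths from the GENCODE exons of the reference annotation). Genes under that limit were read from a fit of the 18565 genes with a count. Alternatives were DESeq2 1.42.0, library size alone, no filter, a filter of 1 CPM in 3 libraries, only the groups compared, the replicate block and leaving out each library. On simulated data for KO-WT in SD (11064 genes), 88.2% of 93 genes changed by 0.5 and 96.9% of 98 changed by 1 on the log2 scale were recovered, and 5.35% of calls were false. The simulation changed 200 genes, as many up as down, where 3565 were called higher and 2907 lower in the data. It therefore does not cover error that comes from the scaling. Same-numbered libraries of different groups deviated together little (r from -0.026 to 0.076, median 0.022). For libraries with different numbers r was -0.091 to 0.043, with a median of -0.0089.

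The members, gene lists and tests were chosen with earlier results of these data known. Named genes were the 10 members, listed relatives with a count, fixed signaling genes and, from other lists, the 3 called genes with the largest change, and some listed genes are not reported here. Correlations across libraries are not given, since the libraries fall into 4 groups. Replicate pairs differed by more than sampling noise (chi-square per degree of freedom 1.35 to 5.41).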

Additional observations from a re-analysis of the deposited data

Results flagged for a closer look

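The response to TGF-β differed between the genotypes, by the interaction in edgeR's quasi-likelihood test, for 6 genes of the families. Irgm1 had a log2 response of -0.43 in WT and -0.84 in KO, a difference of -0.41. Igtp had -1.12 and -1.71, a difference of -0.59. The effector Tgtp1 had -3.03 and -4.03, a difference of -1.0 (adjusted p = 0.0128), its near copy Tgtp2 had -1.57 and -2.55, a difference of -0.98 (adjusted p = 0.0370), and Ifi47 had -0.71 and -1.14, a difference of -0.43 (adjusted p = 0.0165). 9930111J21Rik1 had 0.48 in WT and 0.11 in KO, a difference of -0.37 (adjusted p = 0.0165). Each of the 6 differences was negative, where 16.6% of all genes over the RPKM limit had a negative call and 8.67% a positive one. The call of Irgm1 was lost in none of the alternatives run. With DESeq2 those of Igtp, Tgtp2, Ifi47 and 9930111J21Rik1 were lost (adjusted p = 0.0959, 0.0683, 0.0565 and 0.0925). Of the 12 fits that leave out a library, the call of Igtp was lost in 7 and that of Tgtp2 in 7, that of 9930111J21Rik1 in 4, and those of Tgtp1 and Ifi47 in 2 each. Tgtp1 lost its call without KO-TGF replicate 1 or 2 (adjusted p = 0.0544 and 0.0549), and Ifi47 without KO-TGF replicate 2 or 3 (adjusted p = 0.0528 and 0.101).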

How the results depend on the processing

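The numbers of the 10 genes called were set beside the main numbers 178 times, once per direction, comparison and refit. They stayed within 1.5 times the main number in 170 of the 178. None of the 10 was called higher in the main fit, and the values of that direction stayed at 0, so they add little. The 8 others were those of the interaction, with 1 gene in place of 2 under DESeq2 and in 7 fits without single libraries. The fits without single libraries ranged from 1 to 3. The cause was not tested. Sign changes were found only in small differences. With library size alone, 9930111J21Rik1 was -0.0931 with TGF-β in KO and the interaction of Irgq was -0.0268, with -0.0012 to 0.0677 without single libraries. Tgtp2 in KO against WT in SD was 0.0098 without the filter and -0.142 to 0.0863 without single libraries. The interactions of Gbp2 and Gbp3 were 0.0103 and 0.0185 with DESeq2, and -0.0563 to 0.0344 and -0.0957 to 0.18 without single libraries. Single genes were counted once per gene, comparison and refit. Of these values, 1263 kept direction and call, 46 lost a call, 7 gained one and 19 changed sign. The replicate block ended the call of Iigp1 in KO against WT with TGF-β (-2.76, adjusted p = 0.0567 from edgeR) and changed no other call of the 10 genes. Without KO-SD replicate 1 the call of Iigp1 with TGF-β in KO was also lost (-2.62, adjusted p = 0.0677), and without KO-TGF replicate 2 the interaction of Igtp was -0.41 (adjusted p = 0.200). Depth limits Gbp5, Gbp9, Gbp6 and Iigp1 in KO-TGF, with at most 2 counts in any library.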
